A study of Mus musculus with 16 samples.

Results

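The comparison described here set 4 tumours with a short hairpin RNA against the midkine gene, Mdk, beside 4 tumours with a control hairpin, all 8 of them treated with an antibody against PD1. They were chosen by their treatment label alone and make up 8 of the 16 tumours of the study. The tumours grew in mice from the melanoma line B16R2L, of mouse origin. Knockdown cells carried the hairpin shMdk-5 and control cells a non-target hairpin, so each arm is 1 hairpin in 1 cell population. Treatment began at a tumour volume of 100 mm3 and ran for 2 weeks with 2 injections a week of anti-PD1 clone RMP1-14 at 10 mg per kg, the unit in the treatment label. The other 8 tumours, from the same knockdown and control cells, received an IgG2a control antibody on that schedule. They are described below only for comparison, but they entered the same fit, so that the level filter and the estimate of spread rest on all 16 tumours. The strain, age and sex of the host mice are not given in the sources used here, and neither is any pairing of tumours or processing batch. Tumours are numbered 1 to 4 within each arm in the order of their deposition, which pairs nothing, and no source says how the tumours of an arm were spread over animals, so p-values measure the spread between these tumours.

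Midkine is a heparin-binding factor that melanoma cells secrete and that acts on neighbouring cells through receptors such as nucleolin, syndecans, integrins and Lrp1. PD1 is an inhibitory receptor of activated T cells, and antibodies that block it release T cells from that brake. Activated T cells and natural killer (NK) cells secrete interferon gamma, which signals through the kinases Jak1 and Jak2 to the transcription factor Irf1, and from there to antigen presentation genes, chemokines and antimicrobial GTPases. The question behind the comparison was how tumours under PD1 blockade differ with the level of midkine.

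RNA was read near the 3′ ends of transcripts, and values are the authors' normalised reads per gene, with 5686405 to 8886334 reads behind a tumour. The labels give RNA integrity numbers of 8.6 on average, from 5.8 to 9.2, without a value for each tumour. Of 16094 genes in the table, 14672 had a mean of at least 5 normalised reads over the 16 tumours and were tested. A log2 fold change is the mean of log2(normalised reads + 1) in the knockdown tumours minus that in the control tumours, given with its standard error (SE), and its adjusted p comes from limma over all 14672 genes, with a threshold of 0.05. Control tumour 2 stood apart. Its library was the smallest of the 8, the ribosomal RNA-like transcript Gm42418 took 4.47% of its reads against 0.880% to 1.55% in the other 7 tumours, and its 5 erythroid genes summed to 574470 normalised reads against 3576 to 31493. Knockdown tumour 1 was the only tumour of the 8 whose levels went up with the GC content of a gene's 3′ end, with a slope of 0.094 log2 units per 10% GC against -0.099 to -0.018 in the rest. List counts below are given without a tumour where leaving it out moved them by over 1.5 times, and for several lists also where it moved them by less.

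Mdk itself was lower in every knockdown tumour. It lies on chromosome 2 at 91929805 to 91932297 on the minus strand (GRCm38) and had 925, 606, 1104 and 856 normalised reads in control tumours 1 to 4 and 312, 289.9, 147 and 96.5 in knockdown tumours 1 to 4. The arms did not overlap, with means of 873 ± 206 and 211 ± 106 (SD, n = 4 each), so the knockdown tumours held 24.2% of the control level (log2 fold change -2.17 ± 0.36, adjusted p = 0.00166). An exact two-sided permutation test of the 4 against 4 values gave p = 0.0286, the smallest p that 70 arrangements allow. Knockdown tumours 3 and 4 had less Mdk RNA than knockdown tumours 1 and 2. Under IgG2a the log2 fold change was nearly the same size, -2.16 ± 0.36 (adjusted p = 0.00428).

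**Figure D1:**
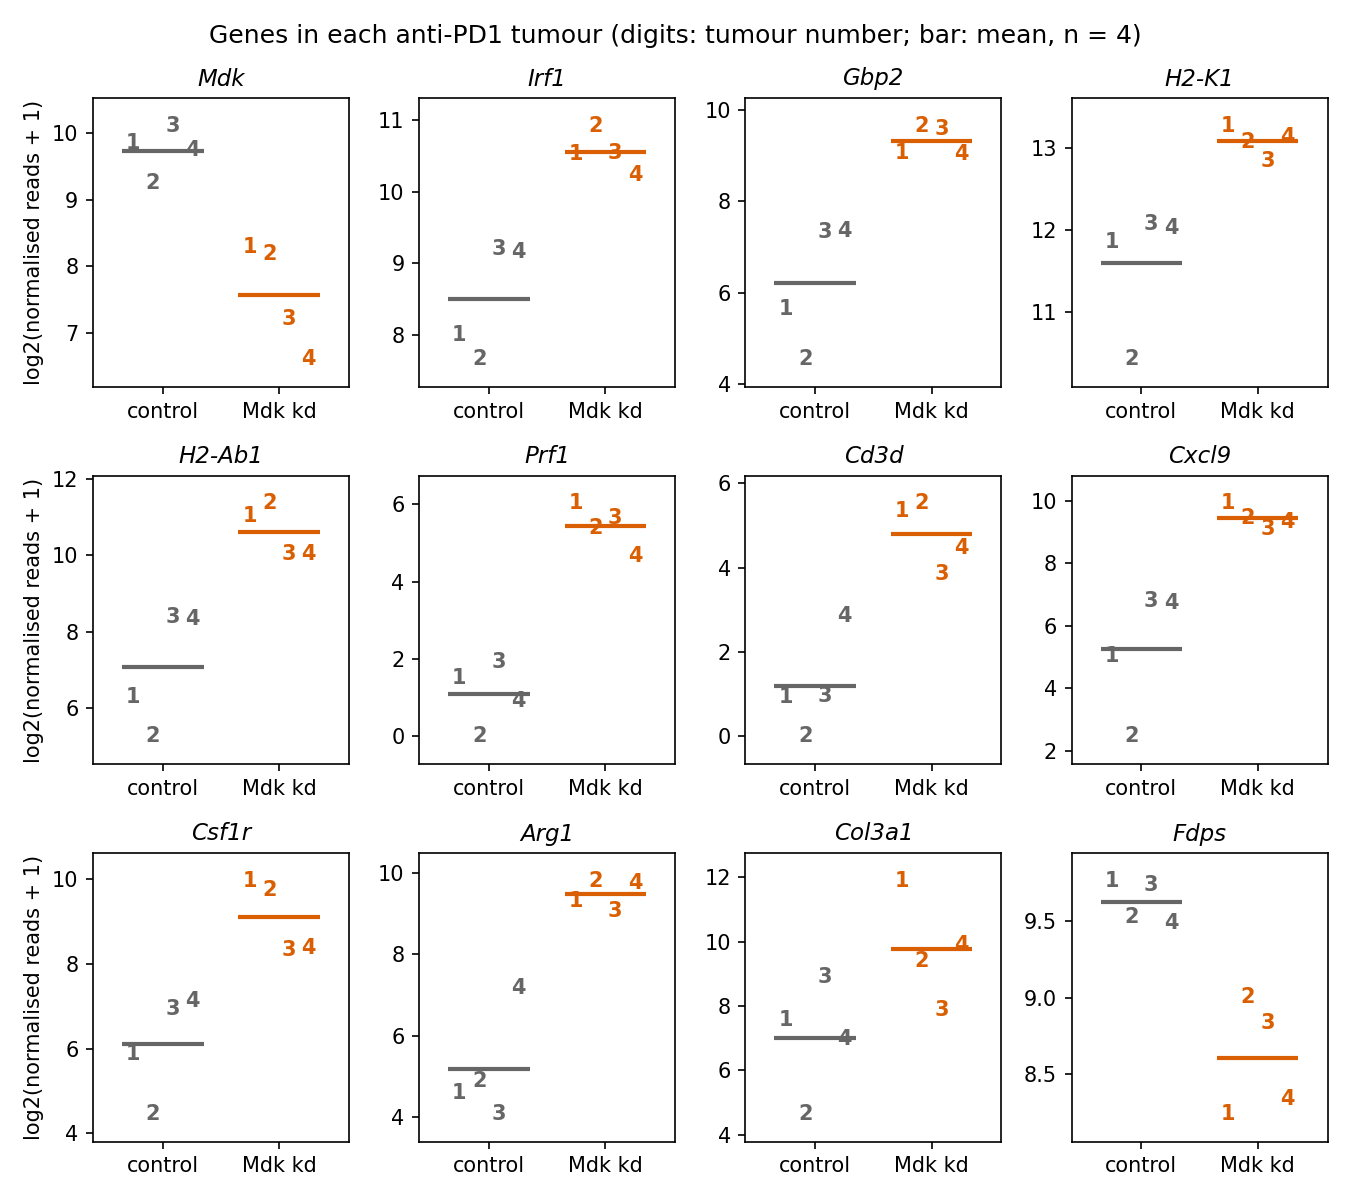
Normalised reads (log2 of the value + 1, vertical axis) of 12 genes in each anti-PD1 tumour, control-hairpin tumours in grey and Mdk-knockdown tumours in orange, with tumour numbers as markers and a bar at the mean of each arm of 4. Mdk and Fdps lie lower in all 4 knockdown tumours, the interferon, antigen presentation, cytotoxic and macrophage genes lie higher in all 4, and Col3a1 overlaps because knockdown tumour 3 lies below control tumour 3.

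Across the genome, genes higher in the knockdown tumours outnumbered those lower. The test passed 724 genes higher (4.93% of those tested) and 146 lower (0.995%), together 5.93%. At least 2-fold differences were found in 617 of the higher and 38 of the lower genes. Among the 724, the tumours of the arms did not overlap in 671, and among the 146 in 137, where over all genes tested 8.23% lay above without overlap and 5.2% below, together 13.4%. The test that chose these genes used the same tumours and favours genes whose arms separate, so the 671 and 137 are no separate support. The median log2 fold change was 2.03 over the higher genes, -0.78 over the lower genes and -0.02 over all genes tested. The number of genes that passed depended on single tumours: without knockdown tumour 1 it was 394 higher and 49 lower, without knockdown tumour 2 487 and 82, without control tumour 1 534 and 73, without control tumour 3 641 and 80, and without control tumour 4 553 and 54. It was 674 and 184 without control tumour 2, 696 and 115 without knockdown tumour 3, and 571 and 106 without knockdown tumour 4. Leaving out any 1 of the 8 tumours kept 372 of the 724 higher calls and 30 of the 146 lower calls in all 8 repeats, and the genes named below passed in all 8 unless the text says otherwise.

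**Figure D2:**
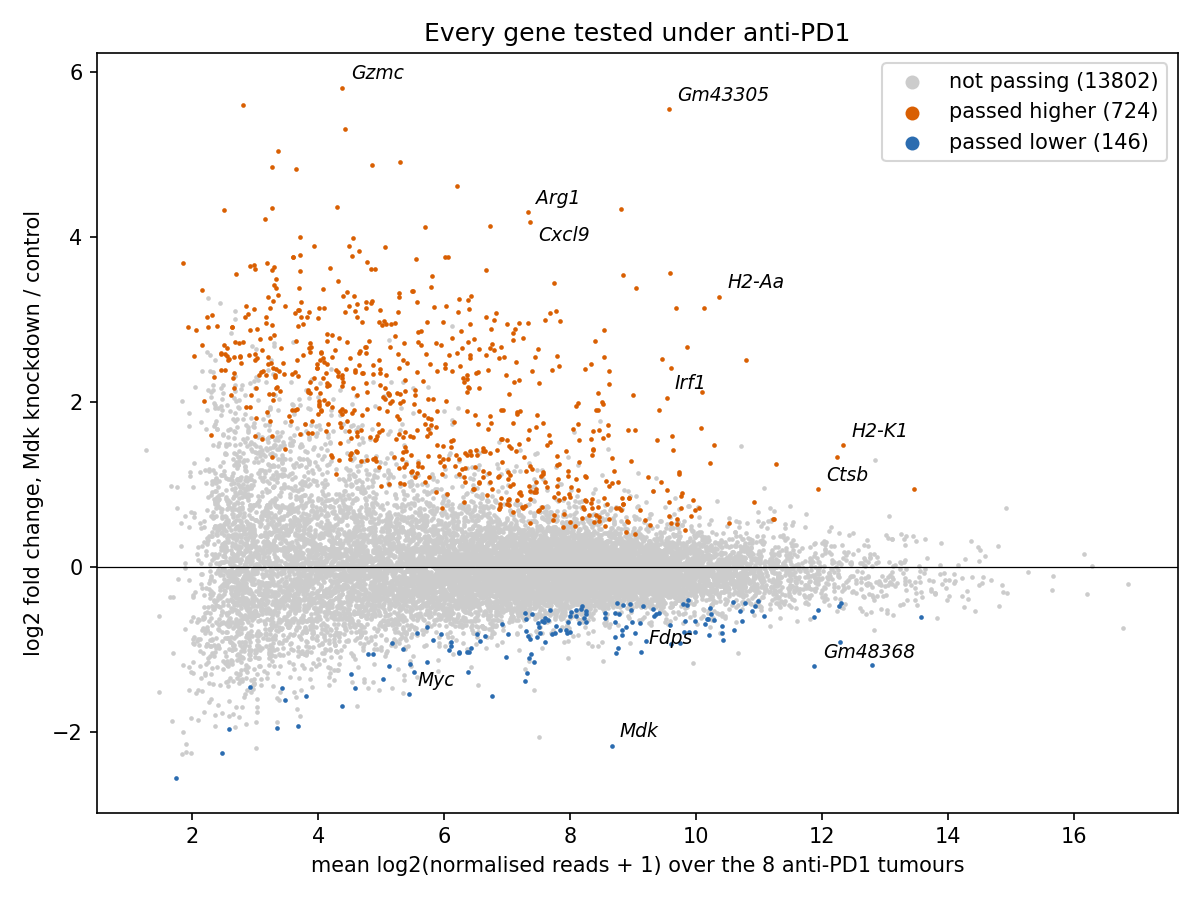
Log2 fold change of knockdown over control under anti-PD1 (vertical axis) against mean log2 level over the 8 tumours (horizontal axis) for all 14672 genes tested, with genes that passed higher in orange, those that passed lower in blue and the rest in grey. The 724 higher genes spread to larger changes than the 146 lower genes, and Mdk is among the largest falls.

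Several of the genes with the largest rises were at the edge of detection in the control tumours. Gzmg, one of the granzymes that cytotoxic lymphocytes load into killing granules, had no read in any control tumour and 182, 8.81, 46.6 and 63.5 normalised reads in the knockdown tumours, which is at least 94.3-fold higher when the control arm as a whole is set at a floor of 3 reads. Gzmc, a granzyme of the same gene cluster, had 0.92, 0, 2.79 and 7.19 in the control tumours and 281, 109.7, 183 and 103 in the knockdown tumours (log2 fold change 5.82 ± 0.63, adjusted p = 7.76e-05). Ubd, a ubiquitin-like modifier induced by interferon gamma and TNF, went from 1.84, 0, 0 and 2.7 to 64.1, 40.1, 76.3 and 58.4 (log2 fold change 5.04 ± 0.58, adjusted p = 1.61e-04). All 3 separated the arms without overlap, as the rule that names the largest rises requires of the genes it takes. Chga, a secretory granule protein of neuroendocrine cells, had 0, 1.5, 0 and 0 in the control and 35.9, 19.6, 7.63 and 61.8 in the knockdown tumours (log2 fold change 4.33 ± 0.87, adjusted p = 0.00569). It belongs to no immune list used here. The gene with the smallest p was an unnamed transcript, Gm43305 (chromosome 14 at 54292443 to 54297456, minus strand, GRCm38), with 101, 182, 86.5 and 89.9 in the control tumours and 6577, 4180.4, 4914 and 5348 in the knockdown tumours (log2 fold change 5.55 ± 0.23, adjusted p = 1.55e-10). Under IgG2a its log2 fold change was 6.33 ± 0.23 (adjusted p = 1.72e-11).

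Interferon gamma signalling genes passed at the receptor, kinase and transcription factor steps. Of 15 members tested, 9 passed higher and 0 lower, with a median log2 fold change of 1.20 beside -0.02 over all genes. The count was 8 without control tumour 2 and 6 without knockdown tumour 1 or knockdown tumour 2. Ifngr1, the ligand-binding receptor chain, had 120.5, 91.6, 106 and 111 in the control tumours and 253, 204, 170.3 and 141 in the knockdown tumours (log2 fold change 0.81 ± 0.19, adjusted p = 0.0144). Its call was lost without knockdown tumour 1 (adjusted p = 0.0666). Ifngr2, the signalling chain, had 248, 167, 179 and 169.8 in the control and 139.9, 199, 210.2 and 209.9 in the knockdown tumours, which overlapped (log2 fold change -0.01 ± 0.35, adjusted p = 0.994). Downstream, the kinase Jak2 rose from 108, 96.1, 119 and 114 to 231, 214, 162 and 198 (log2 fold change 0.87 ± 0.19, adjusted p = 0.0108). Jak1, the other kinase, had 1370.2, 1315, 1322 and 1203 in the control and 2444, 1871, 1818 and 1599 in the knockdown tumours, without overlap but short of the threshold (log2 fold change 0.55 ± 0.17, adjusted p = 0.0618). Of the 2 kinases, only Jak2 passed. Irf1, an early target of the pathway, was higher in each knockdown tumour than in any control tumour, at 1469, 1936, 1487 and 1207 against 254, 201, 587 and 568 (log2 fold change 2.05 ± 0.32, adjusted p = 0.00116). Irf8, a factor shared by interferon responses and the myeloid lineage, rose from 36.8, 42, 71.6 and 62 to 494, 556, 336 and 295 (log2 fold change 2.96 ± 0.32, adjusted p = 7.76e-05). In neither factor did the arms overlap. Ciita, the master regulator of class II genes, had 4.6, 1.5, 29.8 and 29.7 in the control and 109, 175, 72 and 52.5 in the knockdown tumours (log2 fold change 3.12 ± 0.66, adjusted p = 0.00808). Nlrc5, its counterpart for class I genes, had 147, 66.1, 214 and 239 in the control and 383, 488, 387 and 345 in the knockdown tumours (log2 fold change 1.41 ± 0.32, adjusted p = 0.0137), a call lost without knockdown tumour 2 (adjusted p = 0.0508). Stat2 also passed (1.25 ± 0.31, adjusted p = 0.023) but not without control tumours 2 (adjusted p = 0.0613) or 4 (adjusted p = 0.0604) or knockdown tumours 1 (adjusted p = 0.0874) or 2 (adjusted p = 0.0902).

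The guanylate-binding proteins (GBP) and immunity-related GTPases (IRG), which coat and break open vacuoles of intracellular microbes, are among the strongest targets of this pathway. Of 15 tested, 12 passed higher and 0 lower, with a median of 2.37. Gbp2 had 48.7, 22.5, 159.9 and 163 in the control tumours and 528, 798, 766 and 519 in the knockdown tumours (log2 fold change 3.10 ± 0.50, adjusted p = 0.00136). Gbp4 had 15.6, 3.0, 66.9 and 88.1 in the control and 447, 470.0, 418 and 430.0 in the knockdown tumours (log2 fold change 4.13 ± 0.70, adjusted p = 0.00199). Gbp5 had 4.6, 0, 13 and 18.9 in the control and 73.8, 106, 106 and 61.8 in the knockdown tumours (log2 fold change 3.77 ± 0.66, adjusted p = 0.00229). In all 3 the lowest knockdown tumour was more than 3 times the highest control tumour. Among the IRGs, Iigp1 had 254, 96.1, 877 and 885 in the control and 2716, 5158, 3431 and 2464 in the knockdown tumours (log2 fold change 3.15 ± 0.54, adjusted p = 0.0022). Igtp had 272, 113, 732 and 563 in the control and 1865, 2513, 1684 and 1309 in the knockdown tumours (log2 fold change 2.41 ± 0.46, adjusted p = 0.00434). Summed over the list, the control tumours held 1819.9, 772, 3971 and 3484 normalised reads and the knockdown tumours 8766, 13871, 10122 and 7805. Control tumour 2 was the lowest of the 8, and without it 10 of the 15 passed. Without knockdown tumour 1 the count was 8, without knockdown tumour 2 it was 7, and without control tumour 1 it was 8.

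Promoter stretches of 6 of these interferon and antigen presentation genes are printed here because the list members share short sequence elements. Each is the 200 bases before a RefSeq start site (GRCm38.p6), written 5′ to 3′ on the gene's strand. Capitals mark only matches to the elements named below for that gene. In Irf1 (chr11:53769814-53770013, plus strand) the capitals mark a match to the gamma-activated site (GAS) TTCNNNGAA, the letters that STAT dimers bind. In Gbp2 (chr3:142620463-142620662, plus strand) they mark the core of the interferon-stimulated response element (ISRE), searched as GAAA, any 2 bases and GAAA, here on the opposite strand. Gbp5 (chr3:142496734-142496933, plus strand) holds an ISRE core followed by a GAS. Ifit3 (chr19:34583329-34583528, plus strand), a type I interferon target, holds 2 ISRE cores. H2-Aa (chr17:34287824-34288023, minus strand) and H2-Eb1 (chr17:34305667-34305866, plus strand), an alpha and a beta chain of class II molecules, hold the letters ATTGG, the core of the Y box of class II promoters. The same letters stand unmarked on the opposite strand in the Irf1 and Ifit3 stretches. Another RefSeq start of Irf1 (chr11:53770273-53770472, plus strand) had no GAS match in the 200 bases before it.
Irf1: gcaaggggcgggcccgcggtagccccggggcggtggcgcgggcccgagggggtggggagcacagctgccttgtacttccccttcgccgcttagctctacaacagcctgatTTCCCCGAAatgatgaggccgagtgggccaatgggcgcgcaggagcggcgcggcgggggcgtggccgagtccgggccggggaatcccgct
Gbp2: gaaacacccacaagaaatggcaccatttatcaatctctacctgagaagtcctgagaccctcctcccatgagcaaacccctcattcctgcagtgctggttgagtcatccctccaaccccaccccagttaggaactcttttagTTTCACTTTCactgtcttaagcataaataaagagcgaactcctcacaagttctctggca
Gbp5: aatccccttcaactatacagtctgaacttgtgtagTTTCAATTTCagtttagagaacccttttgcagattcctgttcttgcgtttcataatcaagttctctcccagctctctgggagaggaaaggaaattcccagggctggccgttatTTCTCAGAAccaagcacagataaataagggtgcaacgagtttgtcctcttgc
Ifit3: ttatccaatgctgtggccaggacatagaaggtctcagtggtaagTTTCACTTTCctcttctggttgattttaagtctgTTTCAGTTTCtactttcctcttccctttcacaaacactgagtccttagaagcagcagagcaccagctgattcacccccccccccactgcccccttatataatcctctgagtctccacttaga
H2-Aa: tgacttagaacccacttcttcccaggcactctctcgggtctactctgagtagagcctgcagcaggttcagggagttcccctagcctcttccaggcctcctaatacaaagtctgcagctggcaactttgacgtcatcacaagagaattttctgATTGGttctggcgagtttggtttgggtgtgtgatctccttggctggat
H2-Eb1: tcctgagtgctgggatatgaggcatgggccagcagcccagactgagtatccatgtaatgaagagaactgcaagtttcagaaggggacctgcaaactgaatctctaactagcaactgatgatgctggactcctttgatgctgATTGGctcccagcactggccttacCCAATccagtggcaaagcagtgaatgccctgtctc
RefSeq promoters of 300 bases (250 before to 50 after a start) were matched to 10350 of the 14672 genes tested and searched on both strands. The ISRE core was found in 406 of them (3.92%), in 59 of 512 genes that passed higher (11.5%) and in 4 of 110 that passed lower (3.64%). Of the GBP and IRG genes 9 of 10 held it, and of the type I interferon genes 14 of 25, but none of 7 class II genes did. GAS letters stood in 8.34% of all genes tested, in 11.5% of the higher genes and in 6 of 10 GBP and IRG genes. Matches of the 2 elements can overlap. The Y box core is short and common, in 42.6% of all genes tested, and stood in 6 of 7 class II genes, 15 of 17 sterol genes and 15 of 20 class I genes. The letters CACGTG, the E-box that Myc proteins bind, stood in 11.7% of all genes tested, 7.62% of the higher genes and 12.7% of the lower genes. A match is a run of letters, not a measured binding site.

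Genes of peptide presentation on MHC class I, which cytotoxic T cells read, passed higher in 9 of 22 and lower in 0, with a median of 0.99. The classical heavy chains separated the arms: H2-K1 had 3711, 1379.6, 4299 and 4158 in the control tumours and 9830.3, 8618, 7326 and 8921 in the knockdown tumours (log2 fold change 1.48 ± 0.27, adjusted p = 0.00316). H2-D1 had 3723, 1438, 4027 and 3888 in the control and 6998, 7768, 7126 and 8726 in the knockdown tumours (log2 fold change 1.33 ± 0.30, adjusted p = 0.0124). Control tumour 2 was far below the other 3 controls in both. Without that tumour the list count was 8. The non-classical heavy chain H2-Q7 rose from 35.9, 4.5, 70.7 and 47.6 to 465, 370.2, 247 and 351 (log2 fold change 3.60 ± 0.53, adjusted p = 9.47e-04). Reads of H2-Q6 and H2-Q7 may be shared, since the genes of this family are near-identical. The peptide transporter Tap1 had 259, 139.6, 458 and 439 in the control and 964, 1003, 884 and 863 in the knockdown tumours (log2 fold change 1.66 ± 0.28, adjusted p = 0.0021). Tapasin (Tapbp), which loads peptides onto the heavy chains, had 539, 419, 842 and 678 in the control and 2814, 2503, 1531 and 1301 in the knockdown tumours (log2 fold change 1.69 ± 0.34, adjusted p = 0.00558). The light chain B2m had 29155, 13670.0, 32291 and 26147 in the control and 38410.0, 45678, 34876 and 39772 in the knockdown tumours, without overlap, and did not pass (log2 fold change 0.71 ± 0.23, adjusted p = 0.0775). The general folding proteins of the list, Calr (log2 fold change 0.17 ± 0.18, adjusted p = 0.685) and Canx (log2 fold change -0.21 ± 0.14, adjusted p = 0.488), did not pass.

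MHC class II genes, which present extracellular peptides to CD4 T cells and are carried mainly by dendritic cells, macrophages and B cells, passed higher in 8 of 9, with a median of 2.94. That count was 7 without control tumour 2 and 6 without knockdown tumour 1 or knockdown tumour 2. H2-Aa had 274, 141, 898 and 889 in control tumours and 4659, 5940.2, 2908 and 3453 in knockdown tumours (log2 fold change 3.28 ± 0.48, adjusted p = 9.12e-04). H2-Ab1 had 77.2, 37.5, 334 and 322 in the control and 2085, 2616, 1042 and 1048 in the knockdown tumours (log2 fold change 3.54 ± 0.60, adjusted p = 0.00201). H2-Eb1 had 96.6, 39, 424 and 426 in the control and 2164, 2717, 1208 and 1182 in the knockdown tumours (log2 fold change 3.38 ± 0.67, adjusted p = 0.00511). Each chain was higher in knockdown tumours 1 and 2 than in 3 and 4, and lower in control tumours 1 and 2 than in control tumours 3 and 4. Cd74, the invariant chain that escorts them, had 110.3, 51, 538 and 776 in the control and 3649, 3237, 2114 and 1895 in the knockdown tumours (log2 fold change 3.56 ± 0.70, adjusted p = 0.00495). H2-DMa, which exchanges their peptides, had 25.7, 15, 88.3 and 115 in the control and 396, 501, 307 and 251 in the knockdown tumours (log2 fold change 2.94 ± 0.50, adjusted p = 0.00206). The thiol reductase Ifi30, the member that did not pass, had 1247, 1087, 1310.0 and 1464 in the control and 1236, 1703, 1361 and 1362 in the knockdown tumours (log2 fold change 0.15 ± 0.25, adjusted p = 0.844). Summed, class II reads ran from 1629 to 4321 in the control tumours and from 9500.2 to 17582 in the knockdown tumours.

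Genes of the type I interferon response, which overlap in their control with the interferon gamma targets, passed higher in 14 of 34 and lower in 0, with a median of 0.86. Ifit3, an antiviral protein, had 821, 464, 1424 and 551 in the control tumours and 2119.7, 3062, 1948 and 1443 in the knockdown tumours (log2 fold change 1.48 ± 0.31, adjusted p = 0.00732). Oas3, an enzyme that activates RNase L, had 18.4, 40.5, 48.3 and 35.9 in the control and 244, 275, 181 and 146 in the knockdown tumours (log2 fold change 2.57 ± 0.39, adjusted p = 9.65e-04). Irf7, the factor that amplifies type I interferon, had 204, 156, 321 and 196 in the control and 1043, 921, 473 and 532 in the knockdown tumours (log2 fold change 1.72 ± 0.31, adjusted p = 0.00275). Ifitm3 and Bst2 did not pass. Ifitm3 had 8253, 5110.0, 9324 and 5831 in the control and 13217, 10872, 10359 and 8514 in the knockdown tumours (log2 fold change 0.62 ± 0.24, adjusted p = 0.165). Bst2 had 843, 309, 1016 and 694 in the control and 869, 896, 982 and 948 in the knockdown tumours (log2 fold change 0.49 ± 0.27, adjusted p = 0.375). The type I interferon count was 12 without control tumour 2, 10 without knockdown tumour 1 and 9 without knockdown tumour 2. Toll-like receptor genes passed in 5 of 16, among them the RNA sensor Tlr7 with 1.84, 6.0, 7.44 and 11.7 in the control and 27.2, 35.3, 33.9 and 22 in the knockdown tumours (log2 fold change 2.15 ± 0.46, adjusted p = 0.00948). Cd180 had 16.6, 6.0, 26 and 23.4 in the control and 63.1, 105, 67.8 and 58.4 in the knockdown tumours (log2 fold change 2.10 ± 0.40, adjusted p = 0.00437). That count was 2 without knockdown tumour 1, 2 without knockdown tumour 2, and 3 without control tumour 1, control tumour 3 or knockdown tumour 4. Of 8 Schlafen genes, a family of growth and antiviral regulators, 4 passed higher, led by Slfn4 with 3.68, 7.51, 13 and 2.7 in the control and 63.1, 61.7, 61 and 75.3 in the knockdown tumours (log2 fold change 3.29 ± 0.44, adjusted p = 4.50e-04). Slfn1 had 3.68, 6.0, 14.9 and 10.8 in the control and 86.5, 153, 57.6 and 55.9 in the knockdown tumours (log2 fold change 3.21 ± 0.49, adjusted p = 0.00101).

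**Figure D3:**
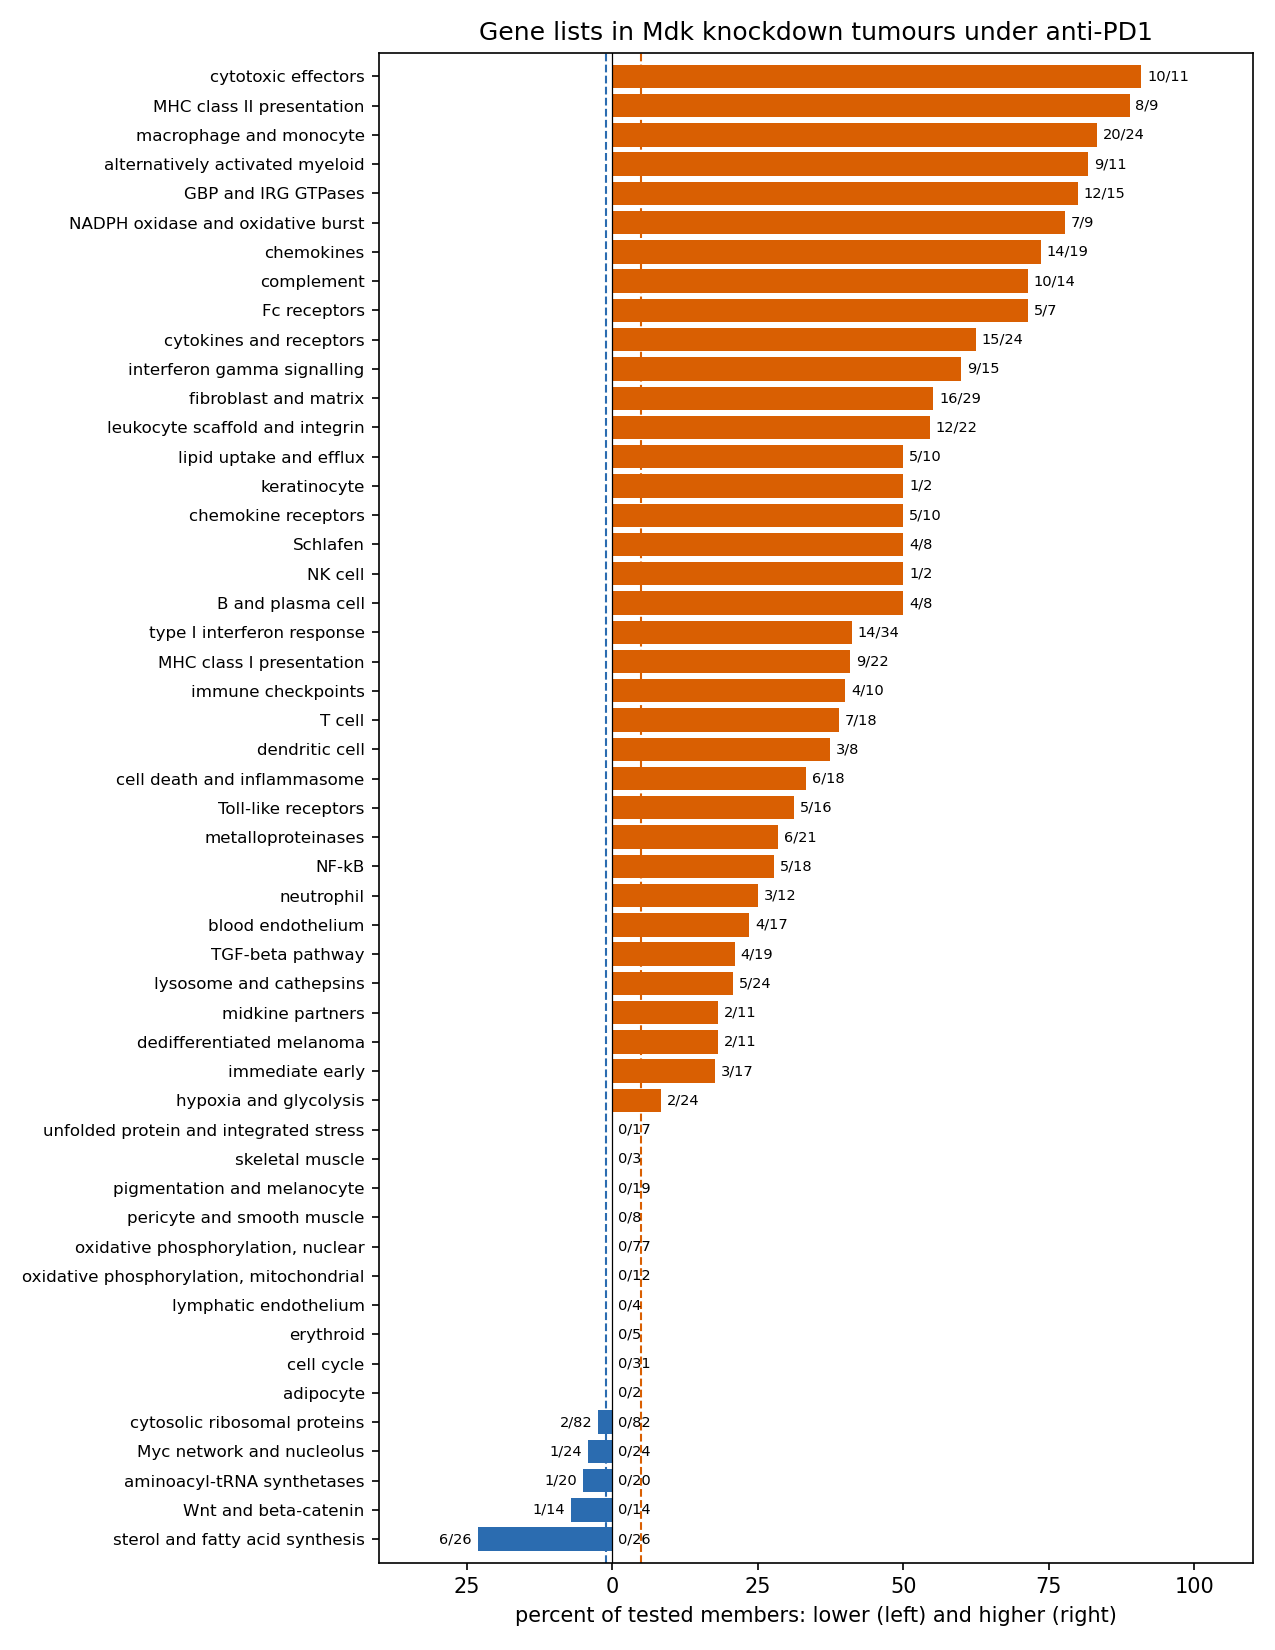
Percent of the tested members of each gene list that passed higher (orange, to the right) or lower (blue, to the left) in knockdown tumours under anti-PD1, with counts beside the bars and dashed lines at the shares over all genes tested (4.93% higher, 0.995% lower). Cytotoxic, class II, macrophage, alternatively activated myeloid and GBP and IRG lists have the longest bars among lists of 5 or more genes, and the sterol list is the only list with more than 2 members lower.

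Cytotoxic effectors had the highest median of the lists, 4.22, and passed higher in 10 of 11. Of the 15 genes listed, only these 11 were in the table. Members almost without reads in the control tumours reached the level filter through tumours outside that arm. The filter thus favours members that rise, so the share and the median are partly set by it. Prf1, the pore-forming perforin, had 1.84, 0, 2.79 and 0.899 normalised reads in the control tumours and 64.1, 41.1, 49.2 and 24.5 in the knockdown tumours (log2 fold change 4.35 ± 0.69, adjusted p = 0.00136). Gzma had 0, 0, 5.58 and 3.59 in the control and 109.8, 75.4, 26.3 and 83.8 in the knockdown tumours (log2 fold change 4.83 ± 0.72, adjusted p = 9.47e-04). Every knockdown tumour exceeded every control tumour in both. Nkg7, a granule protein that takes part in granule release, had 0.92, 0, 5.58 and 8.09 in the control and 62.2, 67.6, 26.3 and 32.2 in the knockdown tumours (log2 fold change 3.76 ± 0.63, adjusted p = 0.00194). Granzymes of one cluster differed among the knockdown tumours: Gzmd had 179, 6.85, 57.6 and 85.5, Gzmg 182, 8.81, 46.6 and 63.5 as given above and Gzmf 184, 0.979, 53.4 and 107, highest in tumour 1 and lowest in tumour 2 in all 3. The control tumours had 0.92, 0, 0.93 and 1.8 for Gzmd (log2 fold change 4.85 ± 0.89, adjusted p = 0.00316) and 0, 1.5, 0.93 and 2.7 for Gzmf (log2 fold change 4.22 ± 1.21, adjusted p = 0.0481). For Gzmf, the adjusted p was 0.123 without control tumour 1, 0.0708 without control tumour 2, 0.099 without control tumour 3, 0.0761 without control tumour 4, 0.188 without knockdown tumour 1, 0.1 without knockdown tumour 3 and 0.142 without knockdown tumour 4. The member that did not pass, Gzmm, had 5.52, 4.5, 2.79 and 5.39 in control tumours and 5.83, 1.96, 251 and 1.69 in knockdown tumours, high in knockdown tumour 3 alone (log2 fold change 0.99 ± 1.02, adjusted p = 0.693).

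T cell genes were at low levels. Of 18 tested, 7 passed higher and 0 lower, with a median of 2.05. The level filter favours low members that rise here, as in other lists of low genes, so the share and the median are partly set by it. A passing member fell below the filter without knockdown tumour 1 or knockdown tumour 2. Cd3d, a CD3 subunit that carries the receptor's signal, had 0.92, 0, 0.93 and 6.29 in the control tumours and 39.8, 45, 13.6 and 21.2 in the knockdown tumours (log2 fold change 3.61 ± 0.58, adjusted p = 0.00144). Il2rb, the interleukin 2 receptor chain of activated T and NK cells, had 6.44, 1.5, 11.2 and 13.5 in the control and 132, 122, 63.6 and 88 in the knockdown tumours (log2 fold change 3.70 ± 0.54, adjusted p = 9.12e-04). These 2 passed in every repeat, and the list count fell to 2 without knockdown tumour 1, to 2 without knockdown tumour 2 and to 4 without control tumour 1. The T cell receptor constant gene Trac had 2.76, 1.5, 8.37 and 8.99 in the control and 54.4, 43.1, 17.8 and 12.7 in the knockdown tumours (log2 fold change 2.37 ± 0.63, adjusted p = 0.0321). Trbc2, a constant gene of the other chain, had 10.1, 0, 14.9 and 18 in the control and 85.5, 139, 41.5 and 57.6 in the knockdown tumours (log2 fold change 3.28 ± 0.84, adjusted p = 0.0258). Neither passed in every repeat: for Trac the adjusted p was 0.0888 without control tumour 1, 0.0807 without control tumour 2, 0.132 without knockdown tumour 1 and 0.106 without knockdown tumour 2, and for Trbc2 the adjusted p was 0.0511 without control tumour 2, 0.0804 without knockdown tumour 1 and 0.0903 without knockdown tumour 2. Tcf7, a factor of naive and stem-like T cells, had 38.6, 40.5, 44.6 and 26.1 in the control and 19.4, 33.3, 28 and 44 in the knockdown tumours and did not pass (log2 fold change -0.29 ± 0.68, adjusted p = 0.893). Of the NK genes, 2 were tested: Klrc1, an NKG2 receptor, rose from 0, 0, 2.79 and 5.39 to 47.6, 47, 12.7 and 18.6 (log2 fold change 3.67 ± 0.80, adjusted p = 0.00965). Klrk1 had 1.84, 78.1, 3.72 and 6.29 in the control and 21.4, 44.1, 13.6 and 16.1 in the knockdown tumours, which overlapped, with control tumour 2 the highest of the 8 (log2 fold change 1.26 ± 0.88, adjusted p = 0.511).

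Among 10 checkpoint and costimulation genes, 4 passed higher. Pdcd1lg2, which encodes PD-L2, a ligand of PD1, had 1.84, 1.5, 1.86 and 1.8 in the control tumours and 32.1, 69.5, 14.4 and 33.9 in the knockdown tumours (log2 fold change 3.61 ± 0.66, adjusted p = 0.00324). Cd274, which encodes the other ligand, PD-L1, had 119.5, 49.5, 92 and 112 in the control and 290.5, 236, 217 and 219 in the knockdown tumours, without overlap but short of the threshold (log2 fold change 1.42 ± 0.45, adjusted p = 0.076). Whether the changes of the 2 ligand genes differ was not tested. Cd86, a costimulatory ligand of CD28 and CTLA4, had 2.76, 0, 2.79 and 1.8 in the control and 17.5, 10.8, 7.63 and 22 in the knockdown tumours (log2 fold change 2.52 ± 0.51, adjusted p = 0.00641). Vsir, the checkpoint VISTA of myeloid cells, had 15.6, 21, 32.5 and 45.8 in the control and 233, 171, 111 and 115 in the knockdown tumours (log2 fold change 2.46 ± 0.45, adjusted p = 0.00312). Entpd1, the ATP-degrading enzyme CD39, had 14.7, 1.5, 13.9 and 17.1 in the control and 80.6, 81.3, 44.9 and 45.7 in the knockdown tumours (log2 fold change 2.60 ± 0.54, adjusted p = 0.00735).

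Macrophage and monocyte markers passed higher in 20 of 24 and lower in 0, with a median of 2.53. Without control tumour 2 the count was again 20, without knockdown tumour 1 it was 15 and without knockdown tumour 2 it was 17. Csf1r, the receptor that macrophages need for survival, had 57.9, 21, 121 and 138 in the control tumours and 989, 851, 319.5 and 328 in the knockdown tumours (log2 fold change 2.99 ± 0.57, adjusted p = 0.00418). Ly6c2 and Ccr2 mark inflammatory monocytes. Ly6c2 had 9.2, 3.0, 34.4 and 15.3 in the control and 255, 401, 156 and 133 in the knockdown tumours (log2 fold change 4.12 ± 0.55, adjusted p = 4.50e-04). Ccr2, the receptor that draws monocytes out of marrow, had 12.9, 1.5, 36.3 and 19.8 in the control and 187, 265, 146 and 113 in the knockdown tumours (log2 fold change 3.73 ± 0.64, adjusted p = 0.0021). Adgre1, which encodes the macrophage marker F4/80, had 14.7, 0, 42.8 and 32.4 in the control and 168, 166, 91.5 and 87.2 in the knockdown tumours (log2 fold change 3.32 ± 0.82, adjusted p = 0.0216), a call lost without knockdown tumour 1 (adjusted p = 0.075) or 2 (adjusted p = 0.0672). Sirpa, the receptor for CD47, did not pass (log2 fold change -0.10 ± 0.54, adjusted p = 0.96). Summed, the list held 1202 to 3101 normalised reads in control tumours and 6172 to 10487 in knockdown tumours. From these libraries alone, more cells of a type and more RNA per cell cannot be told apart, here and for every marker list above and below.

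Genes for phagocyte functions were tested as separate lists. Fc receptors, which bind antibodies on target cells, passed higher in 5 of 7: Fcgr4 had 68.1, 51, 140.4 and 136 in control tumours and 615, 613, 399 and 350.4 in knockdown tumours (log2 fold change 2.40 ± 0.40, adjusted p = 0.00175). Fcgr1 had 21.2, 4.5, 46.5 and 37.7 in the control and 254, 255, 179.7 and 122 in the knockdown tumours (log2 fold change 3.16 ± 0.67, adjusted p = 0.00814). NADPH oxidase and oxidative burst genes passed in 7 of 9, with a median of 2.39. Its membrane core Cybb had 33.1, 24, 119.9 and 72.8 in the control and 460.5, 629.7, 264 and 203 in the knockdown tumours (log2 fold change 2.75 ± 0.50, adjusted p = 0.00292). The cytosolic subunit Ncf4 had 4.6, 1.5, 6.51 and 6.29 in the control and 87.4, 61.7, 36.4 and 41.5 in the knockdown tumours (log2 fold change 3.37 ± 0.58, adjusted p = 0.00209). Acod1, which makes itaconate in activated macrophages, had 2.76, 1.5, 0.93 and 8.09 in the control and 29.1, 21.5, 21.2 and 22.9 in the knockdown tumours (log2 fold change 2.77 ± 0.49, adjusted p = 0.00242). The Fc receptor and oxidase counts were the same without any 1 of the 8 tumours. Complement genes passed in 10 of 14, with a median of 2.31, and in 5 without knockdown tumour 1. C3, the central component, had 17.5, 12, 27 and 18 in the control and 435, 199.8, 53.4 and 102 in the knockdown tumours (log2 fold change 2.98 ± 0.51, adjusted p = 0.0022), highest in knockdown tumour 1. C1qc, a chain of the initiating complex, had 120.5, 54, 194 and 226 in the control and 759.7, 1042, 532 and 536 in the knockdown tumours (log2 fold change 2.40 ± 0.47, adjusted p = 0.00482). Of 24 lysosomal genes 5 passed higher, with a median of 0.42: the cathepsin Ctss, which trims the class II invariant chain, had 274, 75.1, 512 and 546 in the control and 2378, 4734, 1677 and 1869.7 in the knockdown tumours (log2 fold change 3.14 ± 0.52, adjusted p = 0.00175). The cathepsin Ctsb had 3017, 2406, 2971 and 2951 in the control and 6325, 6162, 4060.3 and 5547 in the knockdown tumours (log2 fold change 0.95 ± 0.17, adjusted p = 0.0028). The cathepsin Ctsd did not pass (log2 fold change 0.39 ± 0.26, adjusted p = 0.476).

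Genes of alternatively activated myeloid cells, a state driven by interleukin 4 and tied to tissue repair, passed higher in 9 of 11 with a median of 2.39, and in 7 without control tumour 2 or without knockdown tumour 1. Arg1, the arginine-degrading enzyme of that state, had 23, 28.5, 15.8 and 142 in the control tumours and 630.5, 891, 532 and 868 in the knockdown tumours (log2 fold change 4.31 ± 0.60, adjusted p = 6.26e-04). Chil3, a secreted chitinase-like protein, had 2.76, 3.0, 1.86 and 7.19 in the control and 48.6, 206, 67.8 and 88 in the knockdown tumours (log2 fold change 4.36 ± 0.66, adjusted p = 0.00108). In Arg1, control tumour 4 was well above the other controls but below every knockdown tumour. Mrc1, the mannose receptor, had 49.7, 22.5, 93.9 and 88.1 in the control and 248, 402, 164 and 395 in the knockdown tumours (log2 fold change 2.34 ± 0.38, adjusted p = 0.00171). The lectin Clec10a had 10.1, 7.51, 27.9 and 30.6 in the control and 290.5, 309, 79.7 and 144 in the knockdown tumours (log2 fold change 3.40 ± 0.48, adjusted p = 7.67e-04). None of the 4 overlapped. Cbr2, a marker of resident macrophages, had 15.6, 21, 53.9 and 59.3 in the control and 530.4, 156, 49.2 and 55 in the knockdown tumours and did not pass (log2 fold change 1.90 ± 0.66, adjusted p = 0.113). Folr2, another such marker, had 8.28, 0, 21.4 and 18.9 in the control and 84.5, 43.1, 24.6 and 32.2 in the knockdown tumours and did not pass (log2 fold change 2.40 ± 0.79, adjusted p = 0.0921). Knockdown tumours 3 and 4 lay within the control range in Cbr2, while the arms did not overlap in Folr2.

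Markers of the other leukocytes passed in fewer members. Of 8 dendritic cell genes 3 passed higher: the integrin Itgax, shared with macrophages, had 5.52, 1.5, 10.2 and 5.39 in control tumours and 119, 189, 63.6 and 49.9 in knockdown tumours (log2 fold change 3.99 ± 0.48, adjusted p = 2.59e-04). Batf3, a factor of cross-presenting dendritic cells, had 6.44, 4.5, 9.3 and 11.7 in the control and 29.1, 50.9, 28 and 21.2 in the knockdown tumours (log2 fold change 1.89 ± 0.38, adjusted p = 0.00566). Xcr1 and Zbtb46, more specific to dendritic cells, did not pass (log2 fold change -0.27 ± 0.54, adjusted p = 0.872 and log2 fold change 0.10 ± 0.31, adjusted p = 0.924). Of 12 neutrophil genes 3 passed higher, with a median of 2.12, and 11 of the 12 had a positive log2 fold change. The number passing was 0 without knockdown tumour 1 and 5 without control tumour 2. One of the passing members fell below the level filter without knockdown tumour 1 or knockdown tumour 2, so the filter bears on this list too. S100a8 and S100a9, the most abundant proteins of neutrophils, overlapped, because control tumour 2 had 138 and 85.6 normalised reads and knockdown tumour 2 13.7 and 5.88. Of 8 B and plasma cell genes 4 passed higher, with a median of 2.84, and all 8 had a positive log2 fold change. The light chain Igkc led them with 4.6, 0, 84.6 and 4.49 in the control and 292, 610.1, 49.2 and 242 in the knockdown tumours (log2 fold change 4.92 ± 1.03, adjusted p = 0.00787), in which knockdown tumour 3 lay below control tumour 3. The count was 1 without control tumour 1, control tumour 2, knockdown tumour 1 or knockdown tumour 2, and 2 without knockdown tumour 4. Cd79a, a B cell receptor chain, did not pass (log2 fold change 0.21 ± 0.21, adjusted p = 0.682). No mast cell marker of the list was in the table.

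Chemokines passed higher in 14 of 19 and lower in 0, with a median of 2.17. The level filter bears on this list too, since a passing member fell below it without knockdown tumour 1. Cxcl9, an interferon gamma target that attracts Cxcr3-bearing T cells, had 32.2, 4.5, 112 and 105 in control tumours and 969.5, 699, 545 and 644 in knockdown tumours (log2 fold change 4.19 ± 0.75, adjusted p = 0.00275). Cxcl10, its close relative, had 569, 512, 1945 and 1196 in the control and 922, 1030.2, 1665 and 1388 in the knockdown tumours and overlapped (log2 fold change 0.42 ± 0.42, adjusted p = 0.68). Control tumours 1 and 2 were the lowest of the 8 in both chemokines. Ccl8, a monocyte attractant made by macrophages, had 58.9, 22.5, 257 and 263 in the control and 2759, 3307, 1132 and 1557 in the knockdown tumours (log2 fold change 4.34 ± 0.64, adjusted p = 9.34e-04). Ccl6 had 276, 276, 336 and 689 in the control and 2583, 4193, 1714 and 1554 in the knockdown tumours (log2 fold change 2.67 ± 0.41, adjusted p = 0.00111). Cxcl16, the ligand of Cxcr6 on effector T cells, had 23.9, 1.5, 37.2 and 43.1 in the control and 372, 321, 142 and 206 in the knockdown tumours (log2 fold change 3.76 ± 0.67, adjusted p = 0.00275). The number of chemokines passing was 9 without control tumour 1, 8 without knockdown tumour 2, and 10 without control tumour 2 or knockdown tumour 1. Of 10 chemokine receptors 5 passed, among them Ccr1, which had 0.92, 7.51, 5.58 and 8.99 in the control and 39.8, 32.3, 36.4 and 38.1 in the knockdown tumours (log2 fold change 2.71 ± 0.49, adjusted p = 0.00279). Cxcr3, the receptor of Cxcl9, had 44.1, 69.1, 42.8 and 36.8 in the control and 41.8, 39.2, 18.6 and 18.6 in the knockdown tumours and did not pass (log2 fold change -0.75 ± 0.32, adjusted p = 0.228).

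Of 24 cytokine and cytokine receptor genes 15 passed higher, with a median of 2.02, and 16 did without control tumour 2 and 11 without knockdown tumour 1. Tnfrsf1b, the second TNF receptor, had 23.9, 15, 17.7 and 27 in control tumours and 144, 130.2, 97.5 and 144 in knockdown tumours (log2 fold change 2.59 ± 0.29, adjusted p = 1.08e-04). Il18bp, a secreted inhibitor of interleukin 18, had 29.4, 3.0, 49.3 and 58.4 in the control and 277, 285, 179 and 205 in the knockdown tumours (log2 fold change 3.25 ± 0.63, adjusted p = 0.00466). Control tumour 2 was the lowest of the 8 in both. Il1rn, the antagonist of interleukin 1, had 33.1, 13.5, 23.2 and 71 in the control and 360.4, 120.5, 269 and 255 in the knockdown tumours (log2 fold change 2.94 ± 0.54, adjusted p = 0.00312). Il18 itself (log2 fold change 0.18 ± 0.22, adjusted p = 0.75) did not pass. In the NF-kB list 5 of 18 passed: Nfkbia, the inhibitor that this factor induces, had 529, 655, 511 and 460.1 in the control and 1161, 807, 869 and 1325 in the knockdown tumours (log2 fold change 0.93 ± 0.16, adjusted p = 0.00249). Cd40, the costimulatory receptor, had 0.92, 0, 3.72 and 3.59 in the control and 50.5, 40.1, 16.9 and 29.6 in the knockdown tumours (log2 fold change 3.69 ± 0.54, adjusted p = 9.12e-04). Of 18 cell death genes 6 passed higher, among them the pyroptosis effector Gsdmd with 55.2, 37.5, 73.4 and 80.9 in the control and 176, 175, 125 and 168 in the knockdown tumours (log2 fold change 1.41 ± 0.25, adjusted p = 0.00229). The necroptosis kinase Ripk3 had 15.6, 3.0, 7.44 and 14.4 in the control and 69, 39.2, 37.3 and 34.7 in the knockdown tumours (log2 fold change 2.20 ± 0.41, adjusted p = 0.00349). These NF-kB and cell death counts stayed at 5 or more and 6 or more without any 1 of the 8 tumours.

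**Figure D4:**
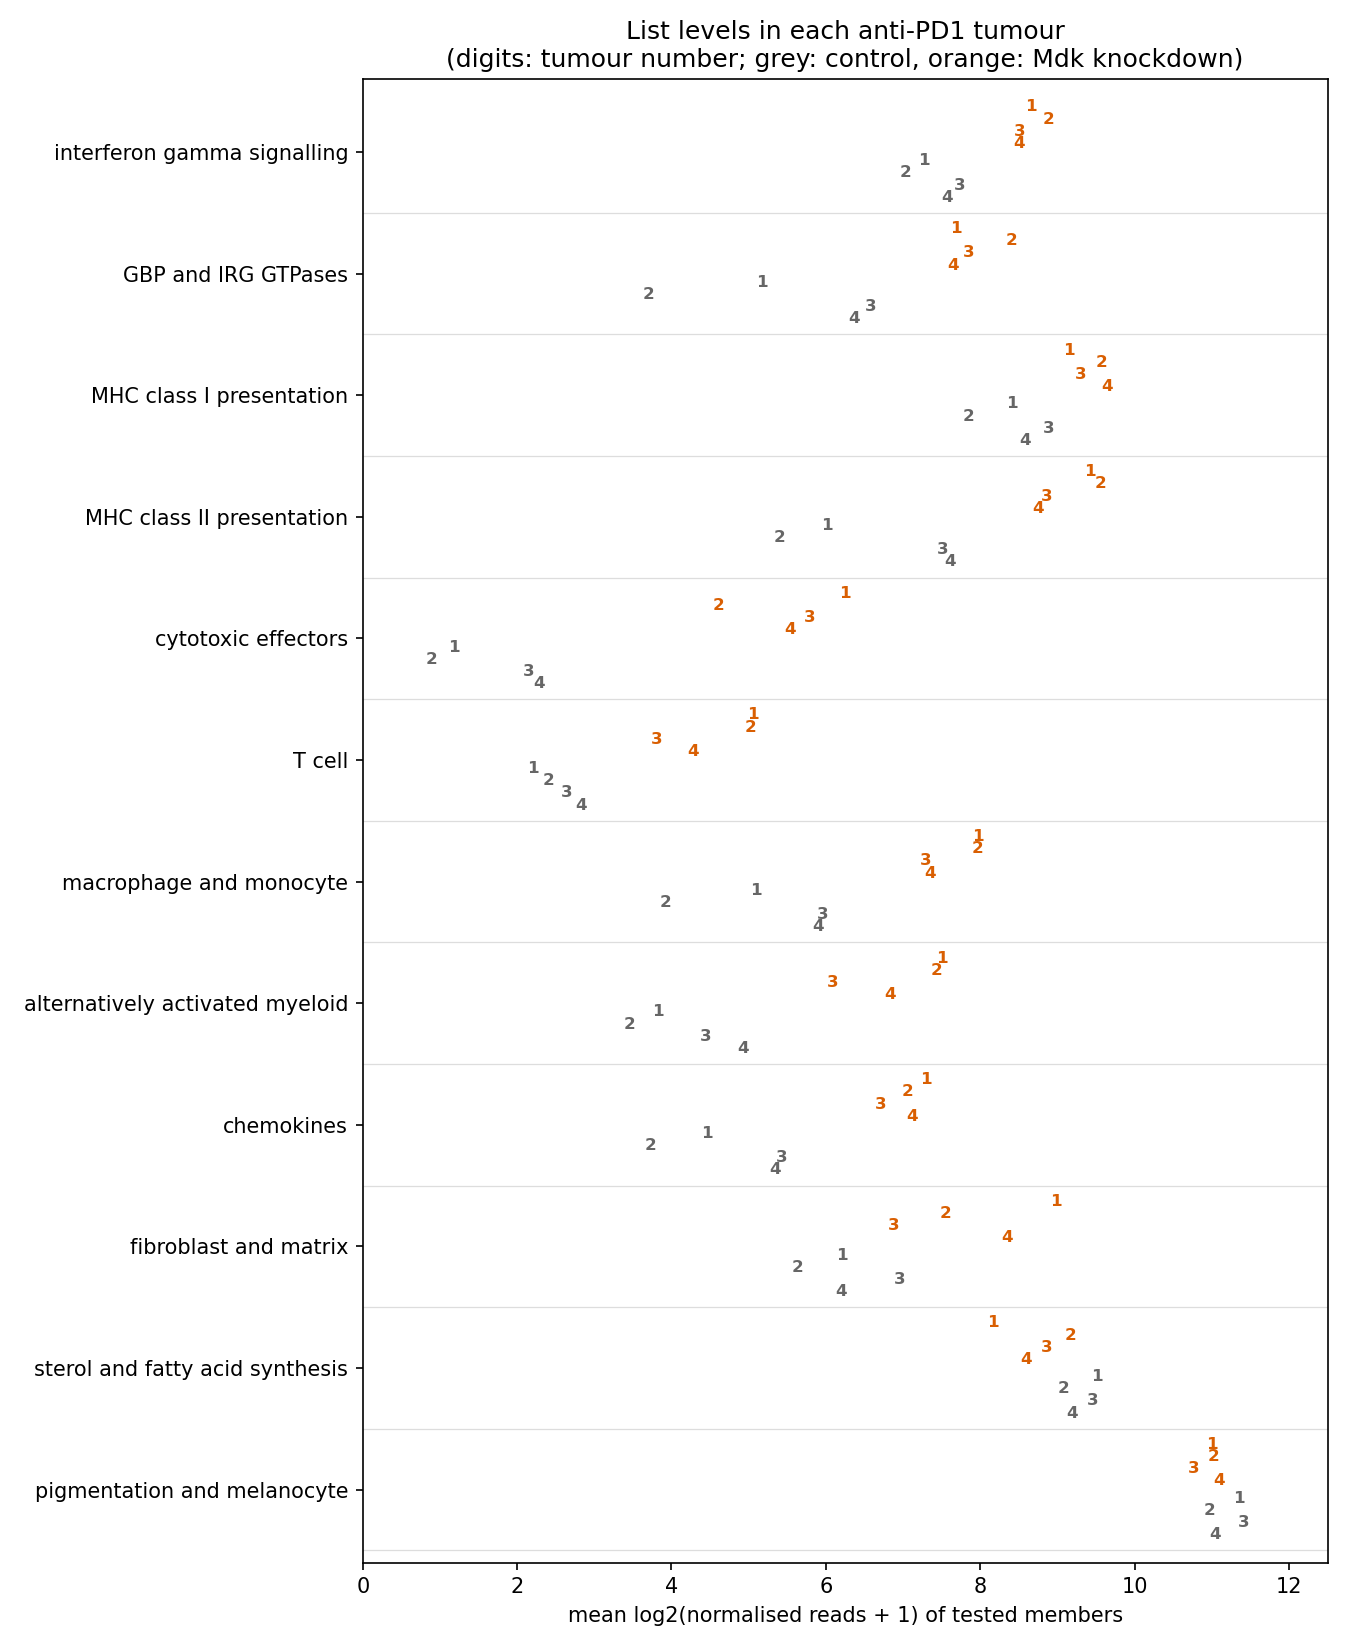
Mean log2 level of the tested members of 12 gene lists (horizontal axis) in each anti-PD1 tumour, control tumours in grey and knockdown tumours in orange, with tumour numbers as markers. Interferon, antigen presentation, lymphocyte and myeloid lists separate the arms, the fibroblast and matrix list is highest in knockdown tumours 1 and 4 and overlaps the controls in knockdown tumour 3, and the sterol list is lowest in knockdown tumour 1.

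Genes of fibroblasts and extracellular matrix passed higher in 16 of 29 and lower in 0, with a median of 1.77, and all 29 had a positive log2 fold change. The spread among the knockdown tumours was wide. Col3a1, a fibrillar collagen, had 187, 24, 474 and 126 in the control tumours and 3796, 674, 233 and 951 in the knockdown tumours (log2 fold change 2.74 ± 0.74, adjusted p = 0.0346). Lox, which crosslinks collagen, had 5.52, 1.5, 27 and 11.7 in the control and 472, 93, 32.2 and 184 in the knockdown tumours (log2 fold change 3.88 ± 0.76, adjusted p = 0.00468). Tnc, a matrix glycoprotein of wounds, had 19.3, 25.5, 116 and 50.3 in the control and 622, 188, 89.8 and 543 in the knockdown tumours (log2 fold change 2.70 ± 0.55, adjusted p = 0.00633). In all 3, knockdown tumours 1 and 4 were the highest of the 8, and in Col3a1 and Tnc knockdown tumour 3 lay below control tumour 3. Lox and Tnc passed in every repeat. For Col3a1, the adjusted p was 0.0561 without control tumour 1, 0.0868 without control tumour 2, 0.0826 without control tumour 4, 0.138 without knockdown tumour 1, 0.0667 without knockdown tumour 2 and 0.0792 without knockdown tumour 4. The list count was 4 without knockdown tumour 1, 8 without knockdown tumour 4, 8 without control tumour 2, 9 without control tumour 1 and 9 without control tumour 4. Sparc, a collagen-binding matrix glycoprotein, did not pass and had 8989, 9610.5, 10393 and 9093 in the control and 14171, 8586, 8250.2 and 9457 in the knockdown tumours (log2 fold change 0.05 ± 0.19, adjusted p = 0.932).

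Of 21 metalloproteinase genes, which remodel the matrix, 6 passed higher. Mmp12, the elastase of macrophages, had 106, 46.5, 62.3 and 137 in control tumours and 469, 688, 620.4 and 861 in knockdown tumours (log2 fold change 2.98 ± 0.31, adjusted p = 7.76e-05). The collagenase Mmp13 had 23, 7.51, 13.9 and 30.6 in the control and 208, 155, 227 and 432 in the knockdown tumours (log2 fold change 3.76 ± 0.42, adjusted p = 1.16e-04). The membrane-bound Mmp14 did not pass (log2 fold change -0.05 ± 0.29, adjusted p = 0.96). The count was 4 without knockdown tumour 1 or control tumour 4. Of 19 genes of the TGF-beta pathway 4 passed: the secreted Tgfbi had 26.7, 19.5, 49.3 and 53 in the control and 391, 337, 173 and 304 in the knockdown tumours (log2 fold change 3.04 ± 0.48, adjusted p = 0.0012). That count was 2 without control tumours 1, 3 or 4 or knockdown tumours 1 or 4. Of 17 blood vessel genes 4 passed, with a median of 0.73, and 16 of the 17 had a positive log2 fold change. Tie1, a receptor of endothelial cells, had 21.2, 15, 22.3 and 10.8 in the control and 79.7, 44.1, 49.2 and 38.1 in the knockdown tumours (log2 fold change 1.55 ± 0.32, adjusted p = 0.0072). Pecam1, the junction protein CD31, had 144, 219, 113 and 114 in the control and 628, 208, 219.5 and 455 in the knockdown tumours and overlapped (log2 fold change 1.24 ± 0.35, adjusted p = 0.0431); the adjusted p was 0.0876 without control tumour 1, 0.121 without control tumour 3, 0.131 without control tumour 4, 0.174 without knockdown tumour 1 and 0.13 without knockdown tumour 4. The vessel count was 1 without control tumour 1, control tumour 4 or knockdown tumour 1, and 2 without control tumour 3 or knockdown tumour 4.

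Genes of melanoma cell identity and growth gave few calls. None of 19 pigmentation and melanocyte genes passed, with a median of -0.19. Dct, an enzyme of melanin synthesis, had 96320.0, 68691, 90157 and 82955 in control tumours and 78929, 72106, 52279 and 68315 in knockdown tumours (log2 fold change -0.32 ± 0.21, adjusted p = 0.469). Tyrp1 had 19539, 13047, 19414 and 15969 in the control and 13118, 13480.0, 15883 and 18036 in the knockdown tumours (log2 fold change -0.16 ± 0.29, adjusted p = 0.852). Of 11 genes of dedifferentiated melanoma 2 passed higher, the receptor kinase Axl with 392, 213, 439 and 403 in the control and 1778, 1440.5, 1169 and 973 in the knockdown tumours (log2 fold change 1.90 ± 0.30, adjusted p = 0.00117). S100a4 had 35.9, 31.5, 78.1 and 71 in the control and 680.0, 392, 272 and 282 in the knockdown tumours (log2 fold change 2.89 ± 0.44, adjusted p = 0.00111), a gene that myeloid and stromal cells also express. Which cells of the tumour held the Axl and S100a4 RNA cannot be told from these libraries. Without knockdown tumour 3 the count was 4. Vim and Sox9 did not pass (log2 fold change -0.02 ± 0.27, adjusted p = 0.978 and log2 fold change 0.61 ± 0.36, adjusted p = 0.414). Of 31 cell cycle genes none passed under this test, with 4 positive and 27 negative log2 fold changes and a median of -0.24. Without control tumour 2, 2 of them passed lower. Mcm3, a replication helicase subunit, had 2054, 1854, 2934 and 2746 in the control and 1614, 1575, 2069.5 and 1723 in the knockdown tumours (log2 fold change -0.44 ± 0.15, adjusted p = 0.0936). Top2a had 4298, 3625, 4987 and 5472 in the control and 3649.8, 3811, 4424 and 3502 in the knockdown tumours (log2 fold change -0.25 ± 0.15, adjusted p = 0.443). The nuclear and mitochondrial genes of oxidative phosphorylation passed in 0 of 77 and 0 of 12, with medians of 0.01 and -0.03.

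The genes that fell did so by less, and fewer of their calls were independent of single tumours. Dhrs2, a short-chain dehydrogenase, had 207, 158, 432 and 271 normalised reads in the control tumours and 98.1, 86.2, 74.6 and 129.5 in the knockdown tumours (log2 fold change -1.38 ± 0.25, adjusted p = 0.0032). Ippk, the kinase that makes inositol hexakisphosphate, had 118, 209, 335 and 143 in the control and 44.7, 70.5, 56.8 and 82.1 in the knockdown tumours (log2 fold change -1.56 ± 0.30, adjusted p = 0.00425). The arms did not overlap in either gene, as the rule that names the largest falls requires of the genes it takes. Bmyc, a Myc family member, had 252, 179, 311 and 271 in the control and 58.3, 123, 114 and 128 in the knockdown tumours (log2 fold change -1.28 ± 0.27, adjusted p = 0.0077). Rab11fip4, a trafficking adaptor, had 34.9, 48, 35.3 and 38.6 in the control and 14.6, 15.7, 16.9 and 8.46 in the knockdown tumours (log2 fold change -1.46 ± 0.31, adjusted p = 0.00926). These 4 passed in every repeat. Myc, the growth-promoting factor, had 101, 75.1, 65.1 and 58.4 in the control and 19.4, 16.6, 27.1 and 40.6 in the knockdown tumours, without overlap (log2 fold change -1.54 ± 0.41, adjusted p = 0.0323); the adjusted p was 0.099 without control tumour 1, 0.0569 without control tumour 2, 0.0563 without control tumour 3, 0.0519 without control tumour 4, 0.109 without knockdown tumour 1, 0.107 without knockdown tumour 2 and 0.0534 without knockdown tumour 3. It was the only 1 of 24 genes of the Myc network and nucleolus to pass, and the count was 2 without control tumour 2 or knockdown tumour 4 and 0 without control tumours 1, 3 or 4 or knockdown tumours 1, 2 or 3. Nop58, a nucleolar member, had 2774, 2079, 3437 and 3818 in the control and 1574, 1478, 1933 and 2342 in the knockdown tumours (log2 fold change -0.71 ± 0.22, adjusted p = 0.0641). Npm1, another, had 11052, 6571, 11039 and 12927 in the control and 6107, 5646, 7838 and 8141 in the knockdown tumours (log2 fold change -0.56 ± 0.21, adjusted p = 0.152). The processed pseudogene Gm48368, on chromosome 12, fell from 6924, 5844, 3940.1 and 6595 to 2569, 2881, 2133 and 2373 (log2 fold change -1.20 ± 0.27, adjusted p = 0.0123). Sirt5, a mitochondrial deacylase, fell from 12484, 9960.3, 7988 and 13353 to 4764, 5062, 4239 and 4789.9 (log2 fold change -1.19 ± 0.28, adjusted p = 0.0161). The Gm48368 values are uncertain, since a pseudogene can share reads with its parent gene. The Sirt5 call was lost without control tumours 1 (adjusted p = 0.0534) or 4 (adjusted p = 0.0587).

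Sterol and fatty acid synthesis was the list with the most members lower: 6 of 26 passed lower and 0 higher, with a median of -0.63, and 25 of 26 had a negative log2 fold change. Fdps, which makes farnesyl diphosphate for the cholesterol pathway, had 870.0, 737, 853 and 719 in the control tumours and 300.2, 513, 455 and 322 in the knockdown tumours (log2 fold change -1.03 ± 0.18, adjusted p = 0.00236). It was the member that passed without any 1 of the 8 tumours. Lss, which closes the first sterol ring system, had 247, 229.7, 272 and 201 in the control and 62.2, 183, 110.2 and 114 in the knockdown tumours (log2 fold change -1.10 ± 0.28, adjusted p = 0.023). Fdft1, which makes squalene, had 1300.3, 952, 1105 and 974 in the control and 438, 947, 476 and 507 in the knockdown tumours (log2 fold change -0.93 ± 0.24, adjusted p = 0.0285). All 3 were highest among the knockdown tumours in tumour 2 and lowest in tumour 1, and none overlapped between the arms. The fatty acid synthase Fasn (log2 fold change -0.26 ± 0.21, adjusted p = 0.603) and the desaturase Scd2 (log2 fold change -0.24 ± 0.40, adjusted p = 0.832) did not pass. The count was 1 without knockdown tumour 1, control tumour 1 or control tumour 3, 2 without knockdown tumour 4, 3 without control tumour 4 or knockdown tumour 3, and 9 without knockdown tumour 2. For Lss the adjusted p was 0.0605 without control tumour 1, 0.0664 without control tumour 3 and 0.0912 without knockdown tumour 1. For Fdft1 the adjusted p was 0.0888 without control tumour 1, 0.0656 without control tumour 3, 0.052 without control tumour 4, 0.113 without knockdown tumour 1, 0.0758 without knockdown tumour 3 and 0.0774 without knockdown tumour 4. Genes of lipid uptake and efflux passed higher in 5 of 10. The fatty acid carrier Cd36 had 37.7, 25.5, 27 and 37.7 in the control and 90.3, 126, 99.2 and 104 in the knockdown tumours (log2 fold change 1.70 ± 0.39, adjusted p = 0.0137). The lipase Lpl had 239, 76.6, 187 and 308 in the control and 444, 1365, 794 and 579 in the knockdown tumours (log2 fold change 2.00 ± 0.36, adjusted p = 0.00297), highest in knockdown tumour 2. The cholesterol exporter Abca1 had 16.6, 30.0, 17.7 and 18 in the control and 69, 65.6, 62.7 and 94 in the knockdown tumours (log2 fold change 1.80 ± 0.35, adjusted p = 0.00434).

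Cytosolic ribosomal protein genes gave few calls. Of 82 tested, 2 passed lower and 0 higher, with a median of -0.23, and 21 lay below without overlap, where 5.2% did over all genes tested. Their summed reads were 775550 to 851200 in the control tumours and 630470 to 747420 in the knockdown tumours, without overlap. Rps9, one of the 2, had 14624, 14725, 14288 and 16519 in the control and 10226, 8984, 9038 and 11375 in the knockdown tumours (log2 fold change -0.61 ± 0.17, adjusted p = 0.0384); the adjusted p was 0.0779 without control tumour 1, 0.0595 without control tumour 2, 0.0687 without control tumour 3, 0.119 without control tumour 4, 0.0914 without knockdown tumour 1, 0.113 without knockdown tumour 2 and 0.091 without knockdown tumour 3. The list count was 0 without control tumour 4 or knockdown tumour 2 and 1 without control tumours 1 or 3 or knockdown tumours 1, 3 or 4. Glycolysis and hypoxia genes passed higher in 2 of 24 with a median of -0.01, in 0 without control tumour 1 or knockdown tumour 1, and in 1 without control tumours 3 or 4 or knockdown tumours 3 or 4. Pkm, a glycolytic enzyme, had 21572, 22983, 19861 and 24607 in the control and 26184, 17603, 19260.0 and 19804 in the knockdown tumours (log2 fold change -0.12 ± 0.24, adjusted p = 0.875). Among 11 receptors and partners of midkine, 2 passed higher, Sdc3, a syndecan that binds midkine, with 106, 144, 97.6 and 116 in the control and 337, 395, 331 and 344 in the knockdown tumours (log2 fold change 1.61 ± 0.20, adjusted p = 2.73e-04). Lrp1 had 103, 194, 123 and 87.2 in the control and 293, 235, 178 and 314 in the knockdown tumours (log2 fold change 1.04 ± 0.29, adjusted p = 0.0436). For Lrp1 the adjusted p was 0.115 without control tumour 1, 0.0882 without control tumour 3, 0.153 without control tumour 4, 0.142 without knockdown tumour 1, 0.0891 without knockdown tumour 2 and 0.13 without knockdown tumour 4, and the count was then 1. Ncl, which encodes nucleolin, had 7992, 6973, 8582 and 9879.9 in the control and 4397, 5869, 7835 and 7649 in the knockdown tumours (log2 fold change -0.40 ± 0.21, adjusted p = 0.335).

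Genes of tissues that border a tumour gave no common shift. Of 3 skeletal muscle genes none passed, with summed reads of 384 to 829 in control tumours and 395 to 931 in knockdown tumours, highest in control tumour 2 and knockdown tumour 2. Of 2 adipocyte genes none passed, and of 2 keratinocyte genes Dsp passed, with 6.44, 9.01, 0.93 and 4.49 in the control and 25.3, 96.9, 12.7 and 22.9 in the knockdown tumours (log2 fold change 2.51 ± 0.59, adjusted p = 0.0154), but not without knockdown tumour 2 (adjusted p = 0.0602). The keratins Krt5, Krt14, Krt10, Krt1 and Krt15, which define that cell type, are not among the genes tested. The 5 erythroid genes did not pass, and apart from control tumour 2 their sums overlapped between the arms. Whether these tissue or blood contents, or the depth of control tumour 2, contribute to the differences above was not tested.

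The knockdown comparison under IgG2a shares no tumour with the comparison above. It passed 239 genes higher (1.63%) and 16 lower (0.109%), together 1.74%. The counts were 47 and 27 without the 5 of 16 libraries with a positive GC slope, 4 of which are IgG2a tumours. In the fit of all 16 tumours, 214 of the 239 higher genes also passed under anti-PD1, which is 89.5% of the IgG2a list and 29.6% of the anti-PD1 list, and 6 of the 16 lower genes did, 37.5% and 4.11%. The 724 genes higher under anti-PD1 had a median log2 fold change of 2.03 there and 1.18 under IgG2a, and 685 had the same sign in both. For the 146 lower genes the medians were -0.78 and -0.33, with 141 of the same sign. Both sets were chosen by their anti-PD1 test, which by itself tends to make the anti-PD1 median the larger in size. These medians therefore do not compare the strength of the knockdown effect between the antibodies. In the test of the difference itself, no gene passed with limma, nor with edgeR or DESeq2, and the smallest adjusted p was 0.99977, with 506 genes (3.45%) at an unadjusted p under 0.05, and those whose log2 fold change was the higher (more positive) under anti-PD1 made up 2.35% of all genes. So for no single gene was an effect shown to differ between the antibodies.

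**Figure D5:**
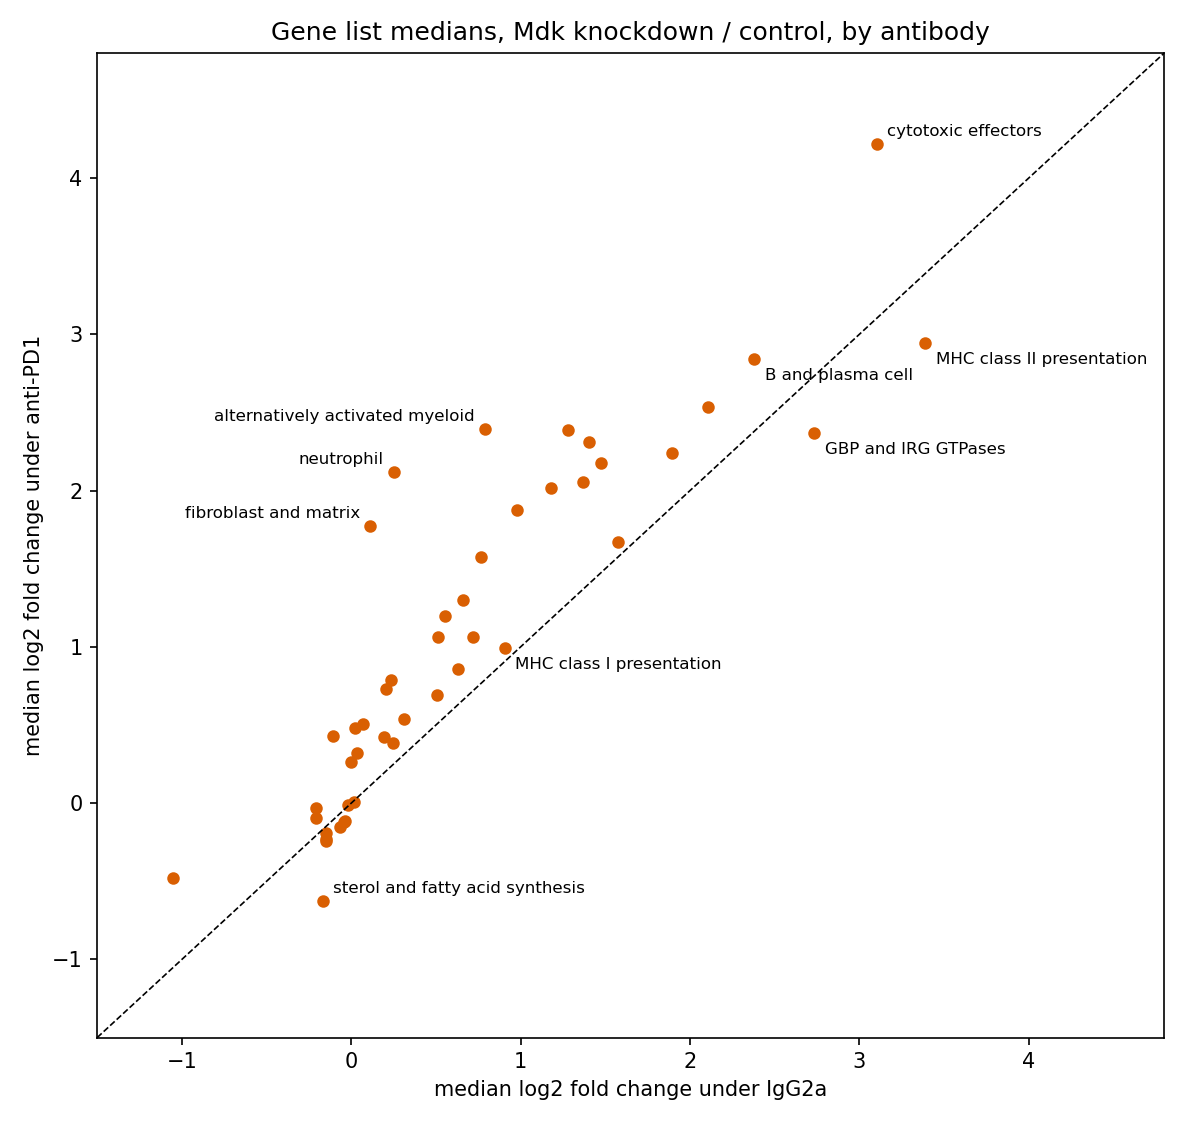
Median log2 fold change of knockdown over control under anti-PD1 (vertical axis) against that under IgG2a (horizontal axis) for each gene list with 5 or more members tested, with a dashed line where both are equal. Among lists with a median above 1 under anti-PD1, the class II and the GBP and IRG lists lie below the line, while the neutrophil, fibroblast and matrix, and alternatively activated myeloid lists lie furthest above it.

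The lists divided by how their values compared. Medians were 2.94 under anti-PD1 and 3.39 under IgG2a for MHC class II, 2.37 and 2.73 for the GBP and IRG genes, and 0.99 and 0.91 for MHC class I. They were 1.20 and 0.55 for interferon gamma signalling, with 9 and 5 of 15 passing, and 0.86 and 0.63 for the type I interferon response, with 14 and 7 of 34 passing. H2-Aa, for example, gave 3.39 ± 0.48 (adjusted p = 0.00199) under IgG2a. The fibroblast and matrix list had a median of 1.77 under anti-PD1 and 0.11 under IgG2a, where none of its 29 genes passed. Its member Lox had 0.08 ± 0.76 (adjusted p = 0.996) under IgG2a, and the values under the 2 antibodies differed by 3.81 ± 1.07 (adjusted p = 0.99977). Alternatively activated myeloid genes had medians of 2.39 and 0.79, with 9 and 0 of 11 passing, and 8 of the 11 reached an unadjusted p under 0.05 in the difference, beside 15 of 29 matrix genes and 3.45% of all genes. Members of a list can move together in the same tumours and are not independent, and no list was tested as a whole. These counts therefore do not show that a list differed between the antibodies. Arg1 had 1.46 ± 0.60 (adjusted p = 0.379) under IgG2a, a difference of 2.84 ± 0.84 (adjusted p = 0.99977). For Chil3 it was 0.70 ± 0.66 (adjusted p = 0.875), a difference of 3.66 ± 0.94 (adjusted p = 0.99977). Sterol genes had medians of -0.63 and -0.17, and Fdps had -0.18 ± 0.18 (adjusted p = 0.887) under IgG2a, a difference of -0.85 ± 0.25 (adjusted p = 0.99977). None of these differences passed after adjustment over all genes.

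Cd163, Ctsl and Ighg2c were among the 10 genes with the smallest unadjusted p of the difference. Cd163, a scavenger receptor of repair-type macrophages, had 2.39 ± 0.67, adjusted p = 0.0427 under anti-PD1 and -1.70 ± 0.67 (adjusted p = 0.354) under IgG2a, a difference of 4.09 ± 0.95 (adjusted p = 0.99977). Its values were 1.84, 0, 2.79 and 2.7 in control tumours and 18.5, 15.7, 3.39 and 20.3 in knockdown tumours under anti-PD1, and 6.75, 8.53, 1.9 and 4.62 and 0, 2.73, 1.9 and 0 under IgG2a. The anti-PD1 call did not stand without some tumours: the adjusted p was 0.0784 without control tumour 1, 0.0986 without control tumour 2, 0.0555 without control tumour 3, 0.0645 without control tumour 4 and 0.117 without knockdown tumour 2, and the gene fell below the level filter without knockdown tumour 1 and knockdown tumour 4. Ctsl, a lysosomal protease, rose from 678, 471, 525 and 635 to 1021, 1306, 1164 and 1585 under anti-PD1 (log2 fold change 1.13 ± 0.19, adjusted p = 0.0021). Under IgG2a it had -0.00039 ± 0.19 (adjusted p = 0.9999), a difference of 1.13 ± 0.27 (adjusted p = 0.99977). Ighg2c, an antibody heavy chain, had 1.18 ± 0.56, adjusted p = 0.281 under anti-PD1 and 4.69 ± 0.56 (adjusted p = 5.60e-04) under IgG2a, a difference of -3.50 ± 0.79 (adjusted p = 0.99977).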

How the data were processed

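RNA of 16 tumours was read with a stranded 3′ end kit (QuantSeq 3′ FWD), per the labels' protocols. The builds GRCm38 and mm10 stand in the submitters' processing notes, as do DESeq2 and HTSeq without a version, TopHat2 2.0.10 with Bowtie 1.0.0, and SAMtools 0.1.19 and FastQC 0.11.0. The authors deposited a normalised signal per gene, that is, read counts divided by a size factor per tumour, and 100% of its values gave whole reads within 0.001. Reads without molecular identifiers carry amplification error that counting does not show.

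All 16 tumours entered 1 limma fit (limma 3.58.1, R 4.3.3) of log2(value + 1) with a mean-variance trend and 12 residual degrees of freedom, with Benjamini-Hochberg adjustment over the 14672 genes. Adding 1 shrinks the fold changes of low genes. The fit was tested on simulated data. edgeR 4.0.16 and DESeq2 1.42.0 on the recovered reads were among 19 alternatives. Gene lists came from textbook knowledge. The comparison, its lists and its tests were chosen with earlier results of these data known. Genes are named by rule: Mdk; the 15 largest rises and 15 largest falls that passed without overlap; the 10 smallest p-values of the difference between antibodies; the 10 passing genes of highest level in each direction; members of short lists (10 or fewer tested), and of longer lists up to 8 passing members with the largest change and up to 4 others of the highest level; and members with no read in an arm. Positions come from GENCODE vM21 and promoters from RefSeq. Some genes that the rule names are not reported here.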

Additional observations from a re-analysis of the deposited data

Results flagged for a closer look

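A value is given here where 1 tumour lay so far from the other 3 of its arm that its gap took up nearly the whole range of the arm (Dixon's test at the 95% level, values in normalised reads). Over the 338 groups of 4 values examined, 27 did, where normally distributed values would give about 1 in 20. Untransformed reads, some of them 0, need not keep that rate, so the number flagged cannot be set against it. Of the 27, 11 lay in control tumour 2, the library with the smallest total. Control tumour 1 stood far above the other 3 of its arm in Ifngr2 at 248 (the other 3 from 167 to 179). Control tumour 2 stood far above the other 3 of its arm in Abca1 at 30.0 (the other 3 from 16.6 to 18.0), Chga at 1.5 (the other 3 from 0 to 0) and Gm43305 at 182 (the other 3 from 86.5 to 101). The same held for Klrk1 at 78.1 (the other 3 from 1.84 to 6.29), S100a8 at 138 (the other 3 from 1.86 to 9.20) and S100a9 at 85.6 (the other 3 from 1.86 to 5.39). It also held for the summed erythroid list at 574470 (the other 3 from 3576 to 16256) and the summed NK cell list at 88.6 (the other 3 from 1.84 to 11.7). Further, it held for the summed skeletal muscle list at 829 (the other 3 from 384 to 457). Control tumour 3 stood far above the other 3 of its arm in Igkc at 84.6 (the other 3 from 0 to 4.60) and the summed fibroblast and matrix list at 16248 (the other 3 from 12644 to 12759). Control tumour 4 stood far above the other 3 of its arm in Arg1 at 142 (the other 3 from 15.8 to 28.5), Ccl6 at 689 (the other 3 from 276 to 336) and Cd3d at 6.29 (the other 3 from 0 to 0.93). Control tumour 2 stood far below the other 3 of its arm in Ctsb at 2406 (the other 3 from 2951 to 3017) and H2-D1 at 1438 (the other 3 from 3723 to 4027). Knockdown tumour 1 stood far above the other 3 of its arm in Ripk3 at 69.0 (the other 3 from 34.7 to 39.2) and the summed erythroid list at 31493 (the other 3 from 13689 to 16033). Knockdown tumour 2 stood far above the other 3 of its arm in Dsp at 96.9 (the other 3 from 12.7 to 25.3), Fdft1 at 947 (the other 3 from 438 to 507) and Xcr1 at 30.4 (the other 3 from 12.6 to 14.4). The same held for the summed keratinocyte list at 138 (the other 3 from 28.8 to 41.8). Knockdown tumour 3 stood far above the other 3 of its arm in Gzmm at 251 (the other 3 from 1.69 to 5.83). Knockdown tumour 4 stood far above the other 3 of its arm in Slfn4 at 75.3 (the other 3 from 61.0 to 63.1). Knockdown tumour 1 stood far below the other 3 of its arm in Ifngr2 at 139.9 (the other 3 from 199 to 210.2). Knockdown tumour 3 stood far below the other 3 of its arm in Gsdmd at 125 (the other 3 from 168 to 176).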

How the results depend on the processing

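Of 19 alternatives, 11 did not leave out single tumours. Leaving out 1 of the 8 anti-PD1 tumours at a time gave 394 to 696 genes higher and 49 to 184 lower under anti-PD1, where all tumours gave 724 and 146, and 218 to 331 higher and 14 to 32 lower under IgG2a. The lower genes numbered 348 with DESeq2 and 229 without the 2 libraries high in Gm42418 (control tumour 2 and an IgG2a tumour). Under IgG2a, DESeq2 gave 390 higher and 59 lower in place of 239 and 16, and leaving out the 5 libraries with a positive GC slope gave 47 and 27. The 16 genes lower under IgG2a became 32 without control tumour 2 of the anti-PD1 arm, which enters that comparison only through the spread and the level filter. The cause was not tested. Of the 724 higher calls, edgeR shared 678 and DESeq2 720, and of the 146 lower calls 136 and 146. No gene passed the difference between antibodies in any alternative. Mdk fell under every alternative tried. Of the 111 named genes that passed, 94 also passed in all 8 repeats that left out 1 tumour. In the 11 other alternatives, 94 of the 111, not necessarily the same genes, passed in every one that tested them. Low genes such as the granzymes rest on few reads in the control arm. No paired analysis was possible because the labels number no replicates and tie no tumour to another across arms.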
